A study of Mus musculus with 10 samples.

Results

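The genes described here are the 71 of 56691 genes in the deposited table whose KEGG annotation places them in the lysine degradation pathway. They were chosen by that annotation alone, and the pathway itself was selected on differences between the groups that were already known, so every comparison of the DSS and ceAF groups below is a description and supports nothing further. By symbol, 27 of the genes code for histone lysine methyltransferases and 6 for other lysine methyltransferases, and the remaining 38 were counted as metabolic enzymes. Of these 38, 5 are *Phf11* genes and 6 are unnamed gene models, which were set apart once the symbols had been seen, leaving 27 enzymes with a metabolic role. The study asked how chick early amniotic fluid (ceAF) acts on colitis caused by dextran sulfate sodium (DSS), a chemical in drinking water that injures the colon epithelium. RNA of colon tissue was sequenced from 10 mice, 5 in each group. All were male C57BL/6 mice obtained at 8 weeks of age, per the study's methods. Every mouse had 3% DSS in its drinking water for 7 days, after which those of the ceAF group were given ceAF by gavage at 15 mL/kg over 10 days. The comparison is with DSS alone, since untreated mice were not analysed here.

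Lysine is broken down mainly in mitochondria, where the bifunctional enzyme AASS joins it to 2-oxoglutarate to form saccharopine, and ALDH7A1 oxidizes the semialdehyde that follows. Later steps are shared with fatty acid oxidation and end in acetyl-CoA. A side route passes through pipecolate, another through trimethyllysine, the precursor of carnitine, and a further one through hydroxylysine, which collagen carries. The pathway map also holds the enzymes that methylate lysine within histones, because trimethyllysine comes from methylated proteins. Histone lysine methyltransferases mark chromatin at defined residues: methylation of H3K4 and H3K36 accompanies transcription, and that of H3K9 and H3K27 accompanies silencing. In the intestine, such marks take part in the renewal and differentiation of epithelial cells.

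The total count of a library was 16275884 to 19901549 in the DSS group and 14676471 to 18811795 in the ceAF group. Values per mouse are CPM, counts brought to a common library total, after scaling by the trimmed mean of M-values, and levels of different genes are compared only as FPKM, which takes exonic length into account; the gene named beside a summed level is the one that gave it most counts. The pathway genes together took between 0.361% of the counts in DSS-1 and 0.444% in ceAF-3. The 6 goblet cell markers summed to 5336 CPM in ceAF-1 and to 10985 CPM or more in each other mouse, with *Muc2* giving the most counts; 5 of them had a lower mean in the ceAF group, *Tff3* at an unadjusted p-value of 0.05. Genes that mark positions along the colon differed between libraries. *Hoxb13*, a gene of the distal colon, was at 6.18 CPM in ceAF-1 and 10.2 CPM in ceAF-4 but at 76.3 CPM or more in the other 8 mice, and *Hoxb6*, a gene of more proximal colon, was at 91.0 CPM in ceAF-1, at 17.4 to 36.6 CPM in DSS-2, DSS-3, DSS-4 and ceAF-3 and at 2.98 CPM or less in the other 5 mice. Distal *Hoxd13* was at 121 CPM in ceAF-2 and 109 CPM in ceAF-3, against 6.42 ± 3.60 CPM in the DSS group (SD, n = 5) and 7.25 CPM or less in the other 3 ceAF mice, and was the 1 position gene at an unadjusted p-value of 0.05. Proximal *Hoxb7* and *Hoxb8* followed *Hoxb6*, at 29.2 and 37.9 CPM in ceAF-1. They were at 6.31 to 19.8 CPM in DSS-2, DSS-3, DSS-4 and ceAF-3 and at 1.73 CPM or less in the other 5 mice. Other companions did not agree: distal *Hoxa13* was at 3.13 CPM in ceAF-1 but 88.4 CPM in ceAF-4, its second highest mouse, and proximal *Hoxa5* was lowest in ceAF-1, at 6.79 CPM. Mitochondrial transcripts took 9.66% of counts in ceAF-1 and 9.74% in ceAF-5, against 4.53% to 7.24% in the other mice.

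Of the 71 genes, 60 passed the filter on low counts, among them all 27 histone methyltransferases, 5 of the 6 other methyltransferases, 23 of the 27 metabolic enzymes, all 5 *Phf11* genes and 0 of the 6 gene models. With edgeR's quasi-likelihood test and Benjamini-Hochberg adjustment over 16545 genes, 0 genes in the table were called at an adjusted p-value of 0.05 (0%), and the smallest adjusted p-value was 0.656. At an unadjusted p-value of 0.05 the test counted 3 pathway genes, where 6.93% of all tested genes were counted in either direction and 3.26% as higher in the ceAF group. All 3 were histone methyltransferases with a higher mean in the ceAF group, *Setdb1*, *Kmt2b* and *Ezh2*. DESeq2 called 26 genes in the table and 0 pathway genes, the smallest adjusted p-value of a pathway gene being 0.272.

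The histone methyltransferases leaned to the ceAF side by small amounts. Of the 27, 26 had a log2 fold change above 0, where 51.4% of all tested genes did. Their median log2 fold change was 0.16, and that of all tested genes was 0.01. They also varied little from mouse to mouse, with a median within-group SD of 0.18 on the log2 scale against 0.33 over all tested genes, not matched for level. This was not particular to them: genes of lysine demethylases and of methyltransferase complex subunits, described below, had medians of 0.17 and 0.15. Averaged over the 27 genes relative to each gene's mean, the log2 level was −0.15 in DSS-1, −0.07 in DSS-2, −0.09 in DSS-3, −0.15 in DSS-4 and 0.06 in DSS-5. It was 0.03 in ceAF-1, −0.02 in ceAF-2, 0.16 in ceAF-3, 0.18 in ceAF-4 and 0.04 in ceAF-5. The groups overlapped through DSS-5, which lay above 3 ceAF mice. Mouse ceAF-4 had the highest level of all 10 mice in 11 of the 27 genes, and DSS-4 the lowest in 7. In bulk tissue, fewer cells of a type and less RNA per cell cannot be told apart, which holds for every value here.

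**Figure D1:**
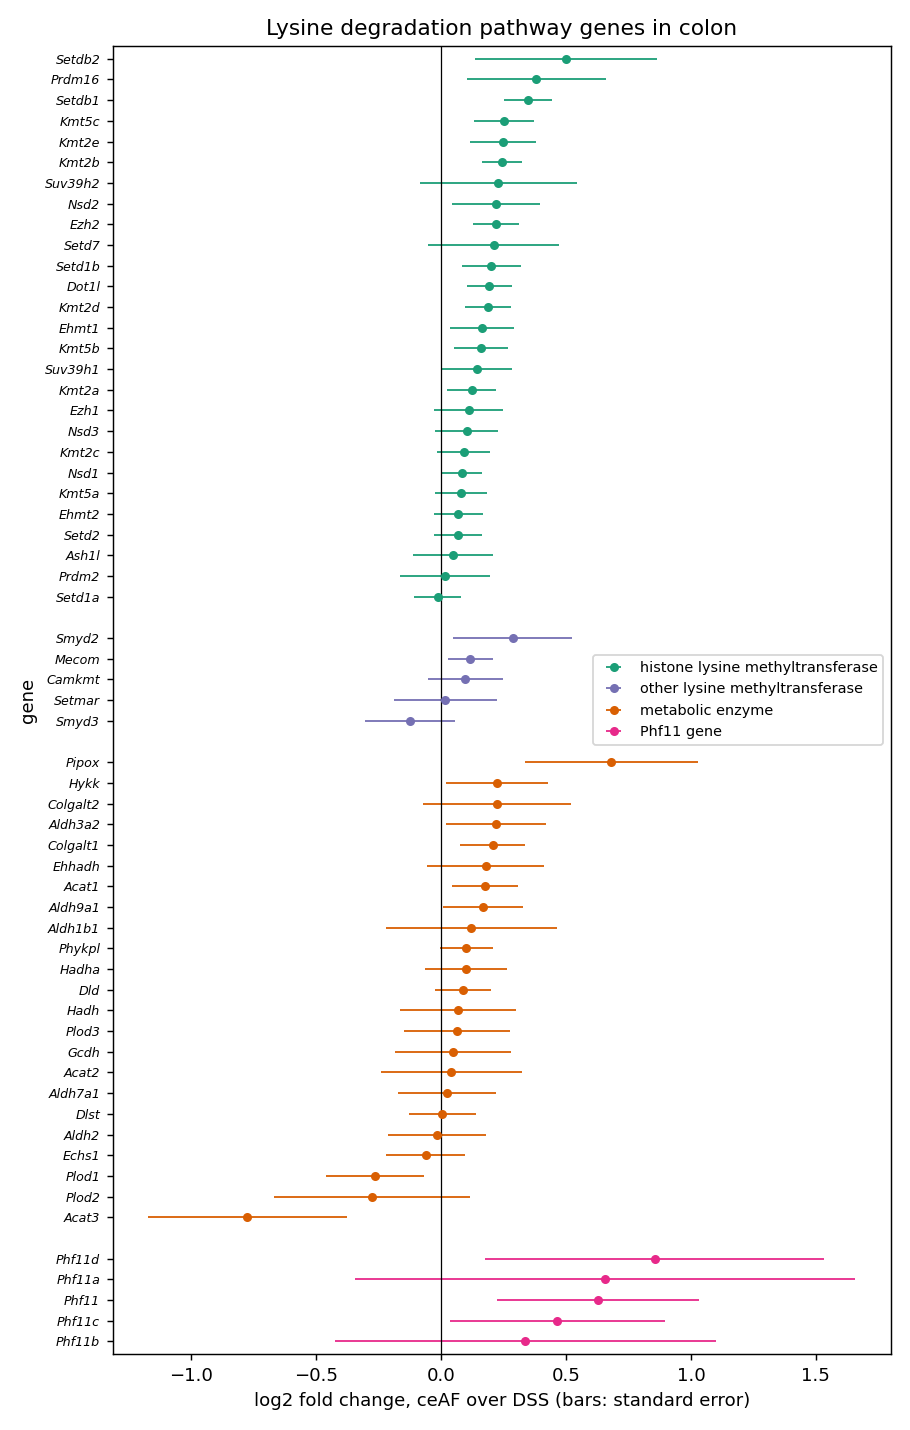
Each point is the log2 fold change of the ceAF over the DSS group for 1 of the 60 tested pathway genes, with bars of 1 standard error from the fit over 5 mice per group and colours for the roles. The histone methyltransferases lie between −0.01 and 0.50 with a median of 0.16, and the *Phf11* genes have the widest bars.

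Long transcripts in general gave a smaller difference of the same sign. The 27 genes are long, with a median exonic length of 9321 bases against 3987 over all tested genes. Among the tenth of tested genes with the longest exonic sequence, 971 of 1655 had a log2 fold change above 0, with a median of 0.04. The median relative log2 level of these long genes was lowest in DSS-4, at −0.13, and highest in ceAF-4, at 0.12. The part of length in the values of the methyltransferases was not tested.

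Genes of the opposing and assisting proteins gave smaller median differences. Lysine demethylases remove the same marks. Of 19 such genes, 17 had a log2 fold change above 0, with a median of 0.04, and 1 was counted at an unadjusted p-value of 0.05, *Kdm4a*, an H3K9 and H3K36 demethylase, with a log2 fold change of 0.26 (SE 0.09, edgeR adjusted p = 0.656). Of 17 subunits of methyltransferase complexes, 16 were tested, 11 had a log2 fold change above 0, and the median was 0.10. The one counted there at an unadjusted p-value of 0.05 was *Mtf2*, an accessory subunit of the H3K27 methylating complex PRC2, with a log2 fold change of 0.20 (SE 0.08, edgeR adjusted p = 0.694). Both genes had a higher mean in the ceAF group. The groups did not overlap for *Kdm4a*, at 55.5 to 63.4 CPM in the DSS group and 64.1 to 81.7 CPM in the ceAF group, although the nearest mice of the groups were close. Separation with the ceAF group higher was found for 0.774% of all tested genes, and *Kdm4a* was named after its values had been seen.

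Among enzymes for H3K9, a mark of silent chromatin, *Setdb1* differed most steadily. SETDB1 trimethylates H3K9 and silences endogenous retroviruses. Its level was 37.7, 41.3, 37.2, 40.5 and 44.9 CPM in DSS-1 to DSS-5, and 46.1, 45.7, 51.9, 56.2 and 56.6 CPM in ceAF-1 to ceAF-5. Every ceAF mouse lay above every DSS mouse, although the highest DSS mouse and the lowest ceAF mouse were close. Such separation with the ceAF group higher was found for 2 pathway genes and for 0.774% of all tested genes. The log2 fold change of *Setdb1* was 0.35 (SE 0.10, edgeR adjusted p = 0.656), and it ranged from 0.31 to 0.40 with each mouse left out. *Setdb1* overlaps *Cers2* on the opposite strand, and reads of overlapping genes can be told apart only if strand was counted, which is not given in the sources used here. The same limit holds for others, since 16 of the 60 tested pathway genes overlap another tested gene. Of these 16, 7 are histone methyltransferases.

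*Ehmt2* codes for G9a, the main enzyme for H3K9 monomethylation and dimethylation in euchromatin, and was among the most abundant methyltransferase transcripts, at 28.4 ± 2.11 FPKM (SD, n = 10). It was at 155, 143, 162, 147 and 157 CPM in DSS-1 to DSS-5 and at 189, 158, 152, 166 and 136 CPM in ceAF-1 to ceAF-5. The ceAF mice spanned both the highest and the lowest value, and the groups overlapped, with a log2 fold change of 0.07 (SE 0.10). Of the 9 genes listed for H3K9, which include *Mecom* from the other methyltransferases, 9 had a log2 fold change above 0, with a median of 0.16. *Setdb2*, the most variable of them, is described with the *Phf11* genes.

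For H3K4, the mark of active promoters and enhancers, the clearest gene was *Kmt2b*, whose product trimethylates H3K4 at promoters. Its level was 67.1, 69.2, 62.0, 68.3 and 72.2 CPM in DSS-1 to DSS-5, and 76.1 to 86.9 CPM in the ceAF group. The groups did not overlap, and this was the second of the 2 pathway genes for which that held. The log2 fold change was 0.24 (SE 0.08, edgeR adjusted p = 0.656). *Kmt2d*, an enhancer H3K4 monomethyltransferase, was at 123, 127, 113, 129 and 121 CPM in the DSS group and at 140, 122, 148, 158 and 130 CPM in the ceAF group, in the order of the mice. Only ceAF-2 lay within the range of the DSS group, and the log2 fold change was 0.19 (SE 0.09). *Kmt2a*, which acts at *Hox* genes among others, had a log2 fold change of 0.12 (SE 0.10).

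The next H3K4 genes were named after their values had been seen. *Setd7* codes for a monomethyltransferase that also modifies proteins other than histones. It was at 62.5, 99.2, 102, 68.3 and 62.4 CPM in the DSS group and at 159, 62.5, 69.7, 87.2 and 78.3 CPM in the ceAF group. Mouse ceAF-1 stood apart, and without it the log2 fold change went from 0.21 to −0.085. *Setd1a*, which codes for a promoter H3K4 methyltransferase, was the 1 histone methyltransferase with a lower mean in the ceAF group, by a log2 fold change of −0.01 (SE 0.09), at 20.4 ± 1.52 CPM in the DSS group and 20.2 ± 1.04 CPM in the ceAF group (SD, n = 5). Of its distinct stretches of 50 bases, 51.2% also stand in the annotated gene model *Gm49388*, so its counts are uncertain. *Prdm9*, listed for H3K4 but not annotated to the pathway, had the highest log2 fold change of that list, 0.40 (SE 0.15, edgeR adjusted p = 0.656), and with *Kmt2b* it was 1 of 2 listed genes at an unadjusted p-value of 0.05.

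H3K27 methylation by PRC2 depends on EZH2 in dividing cells and on EZH1 more in resting ones. *Ezh2* was at 29.3, 34.1, 33.6, 31.4 and 30.2 CPM in DSS-1 to DSS-5 and at 37.5, 32.9, 35.6, 41.9 and 36.6 CPM in ceAF-1 to ceAF-5. Only ceAF-2 fell within the range of the DSS group. The log2 fold change was 0.22 (SE 0.09, edgeR adjusted p = 0.699). *Ezh2* was no longer counted at an unadjusted p-value of 0.05 when DSS-1, DSS-4, DSS-5, ceAF-1 or ceAF-4 was left out, while *Setdb1* and *Kmt2b* stayed counted whichever mouse was left out. The log2 fold change of *Ezh2* was 0.18 to 0.22 in the fits that did not count it. The 6 markers of cycling crypt cells all had a higher mean in the ceAF group as well, at a median log2 fold change of 0.41 and 0 of them at an unadjusted p-value of 0.05. Their summed level was 175, 262, 217, 206 and 208 CPM in the DSS group and 133, 256, 293, 292 and 403 CPM in the ceAF group, with *Mki67* giving the most counts. Mouse ceAF-1 was lowest in this sum and second highest in *Ezh2*, but in the mean relative log2 level of the 6 markers, at −0.48, it lay above DSS-1 at −0.63 and DSS-5 at −0.56; the part of cell division in the *Ezh2* values was not tested. *Ezh1* was at 55.5, 64.1, 63.3, 56.8 and 65.9 CPM in the DSS group and at 89.6, 56.7, 65.1, 65.8 and 52.8 CPM in the ceAF group. Its highest value was again ceAF-1, without which the log2 fold change went from 0.11 to −0.024.

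The 6 genes listed for H3K36, the mark of transcribed gene bodies, include *Setmar* from the other methyltransferases. They had the smallest median among the residue lists, 0.07, and all 6 were above 0. *Nsd1*, a dimethyltransferase, was at 148 ± 3.96 CPM in the DSS group and 156 ± 11.9 CPM in the ceAF group (SD, n = 5), with ceAF-4 highest at 176 CPM. *Setd2*, for the enzyme that trimethylates H3K36, was at 69.7 ± 5.90 and 73.0 ± 6.74 CPM. Both genes overlapped between groups, with log2 fold changes of 0.08 (SE 0.08) and 0.07 (SE 0.10). *Dot1l*, the only enzyme for H3K79 on the lists, was at 52.8, 59.7, 52.8, 59.3 and 64.9 CPM in the DSS group and at 62.8, 70.2, 72.4, 60.8 and 64.8 CPM in the ceAF group. Of the DSS mice only DSS-5 reached the ceAF range, and the log2 fold change was 0.19 (SE 0.09).

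The H4K20 enzymes serve chromosome compaction and DNA repair. *Kmt5a*, the monomethyltransferase of this residue, had the highest FPKM of all 27 histone methyltransferases, 29.4 ± 3.59 (SD, n = 10). Its groups overlapped, at 152 ± 16.1 CPM in the DSS group and 160 ± 15.1 CPM in the ceAF group (SD, n = 5). *Kmt5c*, for an enzyme that trimethylates H4K20, was at 53.6, 66.4, 55.3, 68.5 and 48.4 CPM in the DSS group and at 81.7, 62.6, 63.7, 67.4 and 72.1 CPM in the ceAF group. DSS-2 and DSS-4 lay among the ceAF mice, and the log2 fold change was 0.25 (SE 0.12).

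Of the 6 other lysine methyltransferases, 5 were tested, and 4 of them had a higher mean in the ceAF group, their median log2 fold change being 0.10. *Mecom*, which codes for a zinc finger transcription factor with a PR domain, was the most abundant at 7.57 ± 0.669 FPKM (SD, n = 10), and its log2 fold change was 0.12 (SE 0.09). *Smyd2*, for a methyltransferase of p53 among other proteins, had 0.29 (SE 0.24), *Camkmt*, which methylates calmodulin, 0.10 (SE 0.15), and *Setmar*, which codes for a SET domain methyltransferase, 0.02 (SE 0.21). *Smyd3* was the 1 with a lower mean, at −0.13 (SE 0.18). All 5 overlapped between the groups. *Smyd1*, a gene of heart and skeletal muscle, was not tested, with 37 counts over the 10 mice.

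The widest differences among all pathway genes were between mice and not between groups. The 5 *Phf11* genes are in the pathway because the annotation gives them the KO entry of *Setdb2*; they code for proteins with a PHD finger, not for metabolic enzymes. In the table they lie side by side on the reverse strand of chromosome 14, from *Phf11* at 59482149 to 59497629 up to *Setdb2* at 59639458 to 59678333, in positions as deposited, whose build is not named. *Phf11d*, the most counted, was at 58.5, 67.3, 66.6, 96.8 and 13.0 CPM in DSS-1 to DSS-5 and at 195, 96.3, 211, 25.8 and 18.5 CPM in ceAF-1 to ceAF-5. DSS-5, ceAF-4 and ceAF-5 were low and ceAF-1 and ceAF-3 high, so that the ceAF group held the 2 highest and 2 of the 3 lowest mice.

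*Phf11b* was at 30.7, 43.0, 30.7, 63.1 and 4.92 CPM in the DSS group and at 90.0, 41.0, 73.6, 7.10 and 6.49 CPM in the ceAF group. *Phf11a* was at 5.68, 4.90, 4.79, 7.37 and 0.120 CPM, and at 9.69, 6.64, 18.5, 0.0597 and 1.10 CPM. The same 3 mice were lowest in *Phf11a*, *Phf11b*, *Phf11c*, *Phf11d* and *Setdb2*, and the same 2 were highest. *Setdb2* itself, an H3K9 methyltransferase gene, was at 11.8, 15.1, 16.1, 17.7 and 11.4 CPM in the DSS group and at 23.3, 18.7, 40.5, 9.90 and 9.46 CPM in the ceAF group. It was the most variable histone methyltransferase, with a ratio of 4.28 between the highest and lowest mouse where the median ratio over the 27 genes was 1.53. The log2 fold changes were 0.85 (SE 0.68) for *Phf11d*, 0.34 (SE 0.76) for *Phf11b*, 0.66 (SE 1.00) for *Phf11a*, 0.47 (SE 0.43) for *Phf11c*, 0.63 (SE 0.41) for *Phf11* and 0.50 (SE 0.36) for *Setdb2*, and the groups overlapped in each. Single mice moved them: without ceAF-3 the value was 0.10 for *Setdb2*, 0.24 for *Phf11*, 0.48 for *Phf11d* and −0.066 for *Phf11a*, and without ceAF-1 it was 0.12 for *Phf11c* and −0.11 for *Phf11b*.

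Interferon response genes, 14 of them listed after these values had been seen, split the mice in the same way. Their summed level was 2871, 3222, 3487, 4433 and 724 CPM in DSS-1 to DSS-5 and 7139, 3947, 8816, 756 and 581 CPM in ceAF-1 to ceAF-5, with *Oasl2* giving the most counts. All 14 were tested and had a higher mean in the ceAF group, at a median log2 fold change of 0.60 and 0 at an unadjusted p-value of 0.05. The part of interferon in the *Phf11* and *Setdb2* values was not tested. Reads may also be shared within the family: of the distinct stretches of 50 bases in GENCODE M21 transcripts, 47.0% of those of *Phf11b*, 35.2% of *Phf11a*, 27.1% of *Phf11*, 10.9% of *Phf11c* and 8.09% of *Phf11d* also stand in another gene, so the level of a single member is uncertain.

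**Figure D2:**
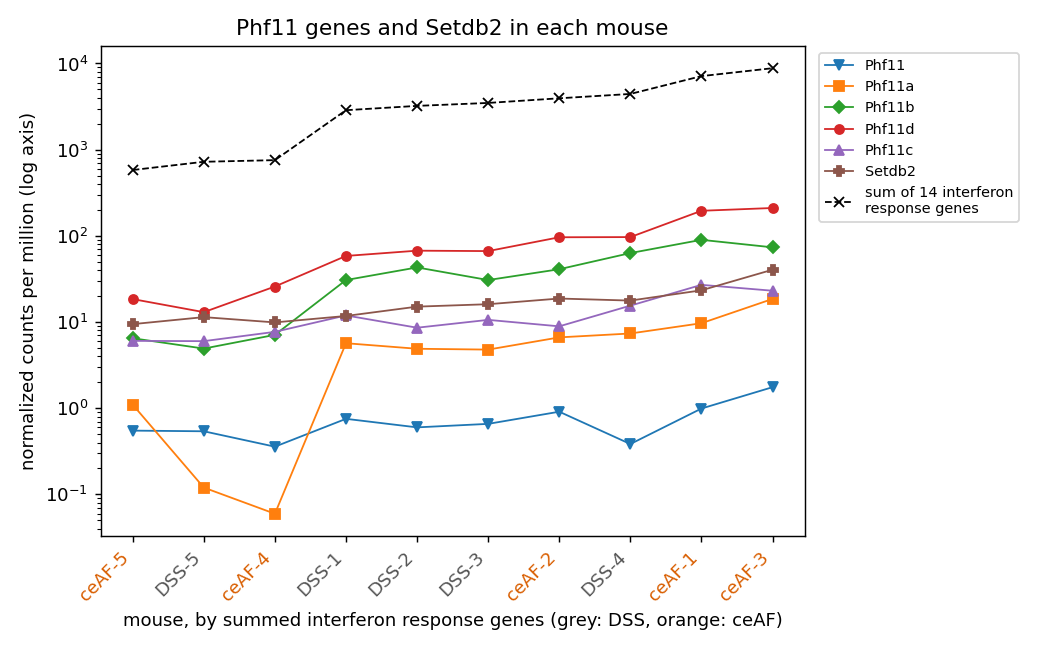
CPM of the 5 *Phf11* genes and *Setdb2* in each mouse on a log axis, with the mice ordered by the summed CPM of 14 interferon response genes (dashed line). The 3 mice at the left, ceAF-5, DSS-5 and ceAF-4, are low in 5 of the 6 genes, and ceAF-1 and ceAF-3 at the right are high in all 6.

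Because these genes varied together between mice, promoters of the family are shown. RefSeq windows on GRCm38.p6, from 250 bases before to 50 after the start of a gene, were matched to 49 of the 71 genes. They were searched on both strands for the half-site GAAA repeated after a gap of 2 bases, as in the core of the interferon-stimulated response element, and for the same repeat with a gap of 1 base; both motifs were chosen after the values had been seen. The first stood in 3.44% and the second in 3.17% of all 32851 windows, and 0.335% held both. Among the 49 genes the first was found in *Phf11a*, *Phf11b*, *Mecom* and *Plod3*, and the second in *Phf11d*, *Hadha* and *Mecom*. Below are the windows of *Phf11b* (chr14:59341281-59341580), *Phf11d* (chr14:59365441-59365740) and *Setdb2* (chr14:59440831-59441130), all on the reverse strand and written 5′ to 3′ along the gene, with a match in capitals.
Phf11b: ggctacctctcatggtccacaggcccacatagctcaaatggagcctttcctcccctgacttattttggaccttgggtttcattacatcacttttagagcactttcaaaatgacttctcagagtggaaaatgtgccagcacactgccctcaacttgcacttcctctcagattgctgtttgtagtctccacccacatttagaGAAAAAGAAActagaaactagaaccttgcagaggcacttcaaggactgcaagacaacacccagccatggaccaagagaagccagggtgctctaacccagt
Phf11d: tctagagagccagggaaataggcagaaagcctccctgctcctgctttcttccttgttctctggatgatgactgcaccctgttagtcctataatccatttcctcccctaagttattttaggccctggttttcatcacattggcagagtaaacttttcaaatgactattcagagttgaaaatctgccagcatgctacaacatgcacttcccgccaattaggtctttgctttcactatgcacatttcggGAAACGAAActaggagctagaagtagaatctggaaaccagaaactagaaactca
Setdb2: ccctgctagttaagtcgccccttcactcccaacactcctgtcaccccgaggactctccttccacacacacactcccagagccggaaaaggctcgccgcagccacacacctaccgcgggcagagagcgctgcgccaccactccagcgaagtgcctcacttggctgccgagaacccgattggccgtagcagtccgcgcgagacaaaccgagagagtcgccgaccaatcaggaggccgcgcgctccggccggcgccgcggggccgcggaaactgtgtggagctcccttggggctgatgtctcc
The match begins 50 bases before the annotated start in *Phf11b* and 4 bases before it in *Phf11d*. The window of *Phf11a* equals that of *Phf11b* in 274 of the 279 bases that overlap without a gap. *Setdb2* held neither motif in its window, and neither did *Phf11c*. Both genes varied with the same mice, and the part of the motifs in the values was not tested. *Setdb2* had 29 CpG dinucleotides, against 0 in the windows of *Phf11a* and *Phf11b*, 3 in that of *Phf11d* and 2 in that of *Phf11c*. The 19 histone methyltransferases with a window had a median of 28 CpG and the 21 metabolic enzymes 15, where the median over 27025 genes was 7. A match is a description of letters and not of a bound site.

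The metabolic enzymes did not lean to one side as evenly. Of the 23 tested, 18 had a log2 fold change above 0, the median was 0.09, and 0 were counted at an unadjusted p-value of 0.05. With the *Phf11* genes counted among them, 23 of 28 were above 0 and the median was 0.11. Their median within-group SD was 0.34 on the log2 scale. DSS-1 was the lowest of the 10 mice in 11 of the 23 enzymes, and ceAF-1 the highest in 7, so single mice set much of the range in both groups.

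The opening steps of the pathway had little RNA in colon. *Aass*, the gene of the saccharopine-forming enzyme, had 15 counts over the 10 mice and 6 in DSS-1 at most. *Aadat*, for the transaminase of 2-aminoadipate, had 0 counts in every mouse, and *Dhtkd1*, for the 2-oxoadipate dehydrogenase subunit, had 77 in all. None of them passed the filter. The steps between and below were present. *Aldh7a1*, for the semialdehyde dehydrogenase, stood at 3.29 ± 0.644 FPKM (SD, n = 10), with 16.9, 17.4, 22.5, 16.7 and 11.3 CPM in the DSS group and 24.3, 15.1, 16.5, 14.7 and 15.7 CPM in the ceAF group. Apart from ceAF-1, the ceAF mice lay inside the range of the DSS group. *Gcdh*, for glutaryl-CoA dehydrogenase, stood at 8.56 ± 2.46 FPKM and at 13.7, 19.7, 22.1, 24.1 and 36.2 CPM against 21.4, 25.8, 20.2, 20.8 and 31.4 CPM. The DSS group held both its lowest and its highest mouse, and the log2 fold changes of the pair were 0.02 (SE 0.20) and 0.05 (SE 0.23).

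Of the shared mitochondrial enzymes, *Dld* and *Hadh*, named for their high FPKM, were far more abundant than *Aldh7a1* and *Gcdh*. *Dld*, for the lipoamide dehydrogenase of several oxo acid complexes, stood at 44.7 ± 4.18 FPKM (SD, n = 10), and *Hadh*, for a 3-hydroxyacyl-CoA dehydrogenase of fatty acid oxidation, at 48.3 ± 11.3 FPKM. *Hadh* was at 171, 284, 263, 282 and 187 CPM in the DSS group and at 404, 203, 231, 187 and 218 CPM in the ceAF group. Mouse ceAF-1 was far above the rest, and without it the log2 fold change went from 0.07 to −0.18. The 6 surface colonocyte markers summed to 5812, 9450, 11874, 11459 and 5692 CPM in the DSS group. In the ceAF group the sum was 15815, 7602, 8404, 5097 and 6221 CPM, with *Car1* giving the most counts. *Car1* alone was at 11922 CPM in ceAF-1, where *Slc26a3* and *Aqp8* had their lowest values, 576 and 277 CPM. The mean relative log2 level of the 6 markers was −0.13, 0.18, 0.08, 0.53 and −0.56 in the DSS group. In the ceAF group it was 0.05, 0.20, 0.11, −0.30 and −0.15, so ceAF-1 was not highest by that measure. The part of these cells in the enzyme values was not tested. *Acat1*, for the mitochondrial thiolase and named after its values had been seen, was at 73.7, 112, 104, 112 and 110 CPM in the DSS group and at 108, 110, 128, 101 and 130 CPM in the ceAF group. DSS-1 was alone at the bottom. *Acat3* had the lowest log2 fold change of the pathway, −0.78 (SE 0.40, edgeR adjusted p = 0.739), but between 3 and 25 counts per mouse, and it shares 42.6% of its stretches of 50 bases with *Acat2*. The fixed list for this route held 15 genes, with the 2-oxoglutarate dehydrogenase genes *Ogdh* and *Ogdhl*, which the table does not annotate to lysine degradation. Of the 12 tested, 9 had a log2 fold change above 0, and the median was 0.04.

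**Figure D3:**
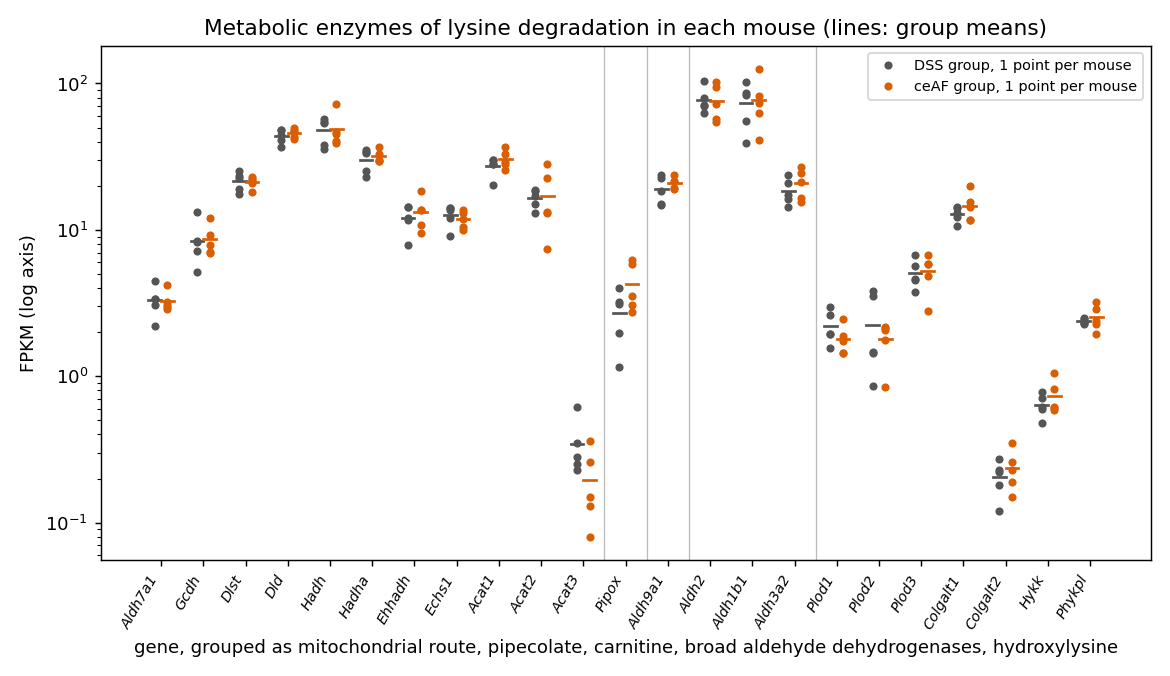
FPKM of the 23 tested metabolic enzymes on a log axis, with 1 point per mouse (grey for the DSS group, orange for the ceAF group) and short lines for group means. *Aldh2* and *Aldh1b1* have the highest levels and *Colgalt2* and *Acat3* the lowest, and the groups overlap for every enzyme.

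On the pipecolate side route, *Pipox*, for the peroxisomal pipecolate oxidase, had the smallest p-value of any metabolic enzyme. It was at 2.72, 9.79, 4.73, 8.07 and 7.80 CPM in DSS-1 to DSS-5 and at 8.47, 15.6, 9.05, 6.50 and 13.5 CPM in ceAF-1 to ceAF-5. DSS-1 and DSS-3 were low, ceAF-2 and ceAF-5 high, and the other mice overlapped, with a log2 fold change of 0.68 (SE 0.35, edgeR adjusted p = 0.739). For carnitine, *Bbox1*, the gene of the last enzyme, had 19 counts over the 10 mice and was not tested. *Aldh9a1*, the trimethylaminobutyraldehyde dehydrogenase gene, named after its values had been seen, was at 63.7 ± 15.8 CPM in the DSS group and 71.6 ± 6.86 CPM in the ceAF group (SD, n = 5). *Tmlhe*, for the enzyme that starts this route, was on the lists but was not found by symbol and was not analysed here.

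Of the 3 aldehyde dehydrogenases of broad substrate, 2 had the highest levels of the pathway. *Aldh2*, whose product also clears acetaldehyde, stood at 76.9 ± 18.0 FPKM and *Aldh1b1*, its close mitochondrial relative, at 75.1 ± 26.7 FPKM (SD, n = 10), a difference within their spread. *Aldh2* was at 308, 358, 357, 431 and 526 CPM in the DSS group and at 311, 489, 384, 279 and 494 CPM in the ceAF group. *Aldh1b1* was at 87.0, 233, 194, 200 and 126 CPM and at 321, 171, 195, 90.9 and 135 CPM. DSS-1 and ceAF-4 were the 2 lowest mice in both genes. Other mice ranked differently: DSS-5 was highest in *Aldh2* and among the 3 lowest in *Aldh1b1*, and ceAF-1 was highest in *Aldh1b1* and among the 3 lowest in *Aldh2*. Their log2 fold changes were −0.02 (SE 0.20) and 0.12 (SE 0.34), and both turned when single mice were left out.

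The hydroxylysine branch links the pathway to collagen, where PLOD enzymes hydroxylate lysine and COLGALT enzymes add galactose to it. Of 7 genes listed, 5 had a log2 fold change above 0, with a median of 0.10. *Plod2*, for the hydroxylase of collagen telopeptides, was at 19.9, 7.75, 7.72, 4.87 and 18.8 CPM in the DSS group and at 5.11, 11.4, 12.1, 9.19 and 10.8 CPM in the ceAF group. DSS-1 and DSS-5 stood above all others, and DSS-4 and ceAF-1 were lowest. *Plod1* was at 14.7 ± 3.53 CPM in the DSS group and 12.2 ± 2.53 CPM in the ceAF group, and *Colgalt1* at 55.1 ± 4.95 and 63.6 ± 12.1 CPM (SD, n = 5). The log2 fold changes were −0.28 (SE 0.39) for *Plod2*, −0.26 (SE 0.20) for *Plod1* and 0.21 (SE 0.13) for *Colgalt1*. Without DSS-1 they were −0.0073 for *Plod2* and −0.15 for *Plod1*, without DSS-5 it was −0.024 for *Plod2*, and without ceAF-4 it was 0.10 for *Colgalt1*. With the replicate number as a block *Plod2* had −0.10. The summed level of 6 fibroblast markers was 1072, 509, 509, 468 and 494 CPM in DSS-1 to DSS-5 and 161, 654, 625, 810 and 443 CPM in ceAF-1 to ceAF-5, with *Col3a1* giving the most counts, and its part in these values was not tested.

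Markers of some immune cells differed more between the groups than the pathway genes did. All 6 T cell markers had a lower mean in the ceAF group, at a median log2 fold change of −1.23 and 6 of 6 at an unadjusted p-value of 0.05. Their summed level was 76.1, 79.7, 80.4, 84.6 and 28.5 CPM in the DSS group and 27.3, 39.8, 32.8, 18.4 and 23.1 CPM in the ceAF group, with *Cd3g* giving the most counts. DSS-5 was the DSS mouse within the ceAF range here, as it was in the average of the histone methyltransferases. All 6 neutrophil markers were lower as well, 5 of them at an unadjusted p-value of 0.05, and their sum was 1748 CPM in DSS-1, 123 to 549 CPM in the other DSS mice and 21.1 to 249 CPM in the ceAF mice. *Ly6g*, which gave the most counts over all mice, was the 1 not counted. It was at 229 CPM in DSS-1, but at 482 CPM of the 549 CPM in DSS-5 and 237 CPM of the 249 CPM in ceAF-2. The sum therefore stood for different genes in different mice. DSS-1 carried much of the difference in the other 5 markers, as in *S100a9*, at 697 CPM in DSS-1, 84.6 CPM in DSS-3 and 16.2 CPM or less in every other mouse of both groups. All 6 macrophage markers were lower too, 2 of them at an unadjusted p-value of 0.05, with a median of −0.49, and so were all 6 B cell and all 6 fibroblast markers, 0 of them at that level, with medians of −0.60 and −0.29. Smooth muscle markers had a lower mean in 6 of 6 and markers of enteric neurons and glia in 5 of 6, with medians of −0.19 and −0.22 and 0 at that level. No T cell or neutrophil marker was at 0 counts over the mice. The part of these cells in the values of the methyltransferases was not tested.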

How the data were processed

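RNA sequencing of colon tissue from 5 DSS and 5 ceAF mice was used, with groups and numbers taken from the sample labels. That each library came from a separate mouse rests on those labels. The authors deposited 1 table with the raw count of each gene in each mouse and the FPKM beside it. Submitters' processing notes name cutadapt 1.9.1 and HISAT2 2.2.1, and the build and the counting program are not given in the sources used here. Each deposited FPKM equalled the count divided by exonic length and library total within 0.0051. The counts of the 20 pairs of mice within a group differed by more than sampling noise, with a chi-square per gene of 14.6 to 148.

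Genes were kept by filterByExpr with a minimum count of 10, scaled by TMM and compared with the two-sided quasi-likelihood test of edgeR 4.0.16 in R 4.3.3, tested on simulated data, with Benjamini-Hochberg adjustment. Relative levels used log2 CPM with a prior count of 1. Roles followed gene symbols. Genes named were the 5 with the smallest p-value and the 5 with the highest FPKM among the histone methyltransferases and among the metabolic enzymes, the 5 tested other methyltransferases, and a preset list of pathway enzymes; all other genes were named after their values had been seen, among them *Setdb2* and the further *Phf11* genes, *Aadat*, *Bbox1*, *Smyd1*, *Kdm4a*, *Mtf2* and *Prdm9*. The members and all lists were chosen with earlier results of these data known. Alternatives were DESeq2 1.42.0, its size factors within edgeR, upper quartile scaling, no filter, the replicate number as a block, and each mouse left out. Plots used Python 3.11.15 with matplotlib 3.10.9. Promoter windows came from RefSeq and transcripts from GENCODE M21, both on GRCm38.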

Additional observations from a re-analysis of the deposited data

Results flagged for a closer look

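Each group of 5 mice was searched for a highest or lowest mouse whose gap to its nearest neighbour exceeded 0.71 of the group's whole range, over 88 combinations of a gene or score and a group, and 7 were found. *Setd7*, *Acat1* and the *Phf11* score below were picked after values or symbols had been seen, so no chance number is given for the whole search. Over the 62 combinations of genes named by the rule and the level of the histone methyltransferases, 4 were found where chance gives about 3.1. Of the 7, 3 were the highest ceAF mouse, ceAF-1: *Hadh* with a gap of 0.8 of the range (404 CPM, next 231 CPM), *Aldh7a1* with 0.821 (24.3 CPM, next 16.5 CPM) and *Setd7* with 0.745 (159 CPM, next 87.2 CPM). This mouse also had *Hoxb13* at 6.18 CPM, *Hoxb6* at 91.0 CPM, *Hoxa5* at 6.79 CPM and a mitochondrial share of 9.66%, and the part of these in the 3 genes was not tested. The lowest ceAF mouse stood apart in *Dld*, with 0.822 (ceAF-4, 146.6 CPM, next 172.8 CPM), and in *Smyd3*, with 0.765 (ceAF-3, 5.43 CPM, next 5.91 CPM). The lowest DSS mouse stood apart in *Acat1*, with 0.784 (DSS-1, 73.7 CPM, next 103.7 CPM), and in the mean relative log2 level of the 5 *Phf11* genes, with 0.841 (DSS-5, −1.95, next 0.21). Interferon response genes were also lowest in DSS-5 within its group, with a summed level of 724 CPM.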

How the results depend on the processing

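All 10 mice and TMM-scaled counts were used for the values above. The median log2 fold change of the 27 histone methyltransferases stayed above 0 under every alternative: it was 0.16 with DESeq2, 0.16 with its size factors in edgeR, 0.17 with upper quartile scaling, 0.17 without a filter and 0.14 to 0.22 with each mouse left out. Between 23 and 27 of the 27 genes were then above 0, the fewest without ceAF-1. With *Setdb2* set apart, chosen after seeing the data, the median was 0.16. The median of the metabolic enzymes, *Phf11* genes included, was 0.07 to 0.20 with each mouse left out, and 0.09 with the *Phf11* genes set apart. The replicate numbers did not pair the mice: with the replicate block, same-numbered mice having correlations of −0.249 to 0.286, 3 pathway genes were counted at an unadjusted p-value of 0.05 (4.19% of all tested genes), *Pipox* in place of *Ezh2*, the median of the histone methyltransferases was 0.16, and 0 genes in the table were called. DESeq2 called 26 genes in the table where edgeR called 0, and edgeR called 0 to 3 with each mouse left out, the 3 without DSS-5; the cause was not tested. Without a filter the 3 pathway genes at an unadjusted p-value of 0.05 (5.33% of all tested genes) were *Setdb1*, *Kmt2b* and *Smyd1*. *Smyd1*, with 37 counts in all, had a lower mean in the ceAF group, 0.0763 CPM against 0.353 CPM in the DSS group. DESeq2 counted 4 pathway genes at that level (4.84% of all tested genes), *Smyd1* among them. Leaving out each mouse gave 2 to 8 pathway genes at an unadjusted p-value of 0.05, against 3 with all mice (6.93% of all tested genes): 5 without DSS-2 (6.30%), 8 without DSS-5 (9.59%), 7 without ceAF-2 (7.05%) and 5 without ceAF-4 (5.62%). The share of all tested genes was highest without ceAF-1 (11.2%), where 4 pathway genes were counted. Of 615 log2 fold changes of 41 named genes under 15 alternatives, 590 kept their sign and 0 were newly called. The rest changed sign when single mice were left out, with ranges of −0.024 to 0.18 for *Ezh1*, −0.085 to 0.33 for *Setd7*, −0.034 to 0.028 for *Setd1a*, −0.048 to 0.15 for *Setmar*, −0.11 to 0.12 for *Aldh2*, −0.18 to 0.30 for *Aldh1b1*, −0.18 to 0.16 for *Hadh*, −0.13 to 0.16 for *Aldh7a1*, −0.090 to 0.28 for *Gcdh*, −0.066 to 0.99 for *Phf11a* and −0.11 to 0.67 for *Phf11b*; the cause was not tested. With each mouse left out, values that kept their sign but moved by over 1.5 times ranged from 0.042 to 0.15 for *Kmt5a*, 0.0020 to 0.12 for *Ehmt2*, 0.046 to 0.11 for *Nsd1*, 0.027 to 0.12 for *Setd2*, 0.079 to 0.17 for *Kmt2a*, 0.10 to 0.69 for *Setdb2*, 0.24 to 0.84 for *Phf11*, 0.12 to 0.66 for *Phf11c*, 0.48 to 1.13 for *Phf11d*, 0.17 to 0.51 for *Smyd2*, 0.016 to 0.18 for *Camkmt*, −0.22 to −0.053 for *Smyd3*, 0.025 to 0.15 for *Dld*, 0.083 to 0.23 for *Acat1*, −1.07 to −0.47 for *Acat3*, 0.086 to 0.27 for *Aldh9a1*, 0.10 to 0.29 for *Colgalt1*, −0.37 to −0.15 for *Plod1* and −0.47 to −0.0073 for *Plod2*. The replicate block moved *Setdb2* to 0.31, *Phf11c* to 0.28, *Phf11b* to 0.16, *Plod2* to −0.10, *Aldh1b1* to 0.054, *Hadh* to 0.030, *Gcdh* to 0.095, *Aldh2* to −0.029 and *Setmar* to 0.0046. Depth limits *Acat3*, with 3 to 25 counts per mouse, *Phf11*, with 6 to 32, *Colgalt2*, with 8 to 24, *Phf11a*, with 1 count in ceAF-4 and 2 in DSS-5, and the genes below the filter.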
